A study of Mus musculus with 7 samples.

Results

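The genes described here are 42 genes of G2 phase and mitosis, chosen by name for their roles in the cell cycle and kept where they reached 1 TPM in at least 3 samples. TPM is a length-corrected transcript abundance scaled to the same total in every library. All 42 were in the deposited table and all 42 passed that filter, among 13798 genes of the table that did. Expression was measured by poly(A)-selected RNA-seq in CD8 T cells sorted as live CD45+ CD8+ cells from subcutaneous MCA205 tumours, a transplantable mouse fibrosarcoma, harvested 14 days after implantation. 4 libraries came from mice lacking the nucleoside transporter ENT1 (ENT1KO, genotype Slc29a1-/-, replicates 11, 12, 14 and 15), and 3 from C57Bl/6 WT mice (replicates 1, 2 and 3). The same tumour line was implanted in both, so the deletion was carried by the host and its T cells and not by the implanted cells. The labels give no age, and neither the origin of the deletion nor the part of the gene removed. They do not say that each sample is 1 animal, so the p-values reflect how these libraries vary, which may be technical. The comparison of ENT1KO with WT addresses whether loss of the transporter in the host alters the transcriptome of CD8 T cells in the tumour.

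Cells enter mitosis when cyclin-dependent kinase 1, held by cyclin A and cyclin B, is activated at the end of G2. Aurora and Polo-like kinases then build the spindle, the kinetochore ties each chromosome to it, and the spindle checkpoint holds back the anaphase-promoting complex until all chromosomes are attached. Transcripts of these proteins rise in G2 and are low in resting cells. Their promoters commonly hold CCAAT boxes, bound by NF-Y, and a cell cycle genes homology region (CHR), where the MuvB complex sits with repressors in resting cells and with B-Myb and FoxM1 in dividing cells. In a tumour both activated CD8 T cells and the tumour cells themselves divide, so these transcripts mark no cell type.

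These elements were searched in the RefSeq promoters (build GRCm38.p6, 250 bases before to 50 after the start), which matched 36 of the 42 genes with 38 promoters. Aurkb, Ccna2, Cdc25c, Kif20a, Smc4 and Tpx2 had no entry. The CHR (TTTGAA, either strand) was in 28 of the 38 promoters, or 73.7%, against 17.9% of all 32851 promoters in the table. It lay within 50 bases of the start in 68.4%, against 4.94% of all promoters and 4.65% of those of an S phase list. CCAAT (either strand) was in 78.9%, against 37.4% of all promoters and 55.8% of those of the S phase list. In a list of other G2 and mitosis genes the CHR was in 35 and CCAAT in 47 of 70 promoters, and the CHR lay within 50 bases of the start in 29 (41.4%). A CHR and a CCAAT match can share at most an end base, while CCAAT matches on opposite strands can share the bases AT. The 100 bases before the start are shown for 5 genes, to let the spacing of the elements be read. 4 of these genes had lower transcript levels in ENT1KO (Cdk1, Ccnb1, Cdc20 and Ube2c), and for 1 no difference was called (Kif11). Capitals mark CHR and CCAAT on either strand, so that a CHR on the opposite strand reads TTCAAA, and a CCAAT box on that strand reads ATTGG. The stretches lie at chr10:69352913-69353012 (minus strand, Cdk1), chr13:100786487-100786586 (minus, Ccnb1), chr4:118437344-118437443 (minus, Cdc20), chr2:164769829-164769928 (plus, Ube2c) and chr19:37376282-37376381 (plus, Kif11), and read 5′ to 3′ along the gene.
Cdk1: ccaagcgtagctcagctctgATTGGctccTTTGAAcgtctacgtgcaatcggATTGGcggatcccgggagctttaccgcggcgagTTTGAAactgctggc
Ccnb1: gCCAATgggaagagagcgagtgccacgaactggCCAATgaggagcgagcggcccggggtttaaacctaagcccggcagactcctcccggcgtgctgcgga
Cdc20: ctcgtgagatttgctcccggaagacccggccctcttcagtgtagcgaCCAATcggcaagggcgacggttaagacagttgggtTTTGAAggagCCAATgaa
Ube2c: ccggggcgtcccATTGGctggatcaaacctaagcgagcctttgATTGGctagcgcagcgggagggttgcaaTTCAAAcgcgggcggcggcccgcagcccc
Kif11: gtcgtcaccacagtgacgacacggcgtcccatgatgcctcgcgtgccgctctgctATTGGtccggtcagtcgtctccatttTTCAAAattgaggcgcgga

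Elements of both kinds occurred among genes with either sign of difference between genotypes. A CHR was found in 20 of the 26 matched genes with a negative difference and in 6 of the 10 with a positive one. Anln and Aurka, the genes with the most negative differences, had their CHR after the start, with first bases 22 and 29 bases into the transcript for Anln and 33 for Aurka. The window of Ccnb1 held CCAAT boxes and no match to the CHR letters. These matches describe sequence and were not tested for binding.

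**Figure D1:**
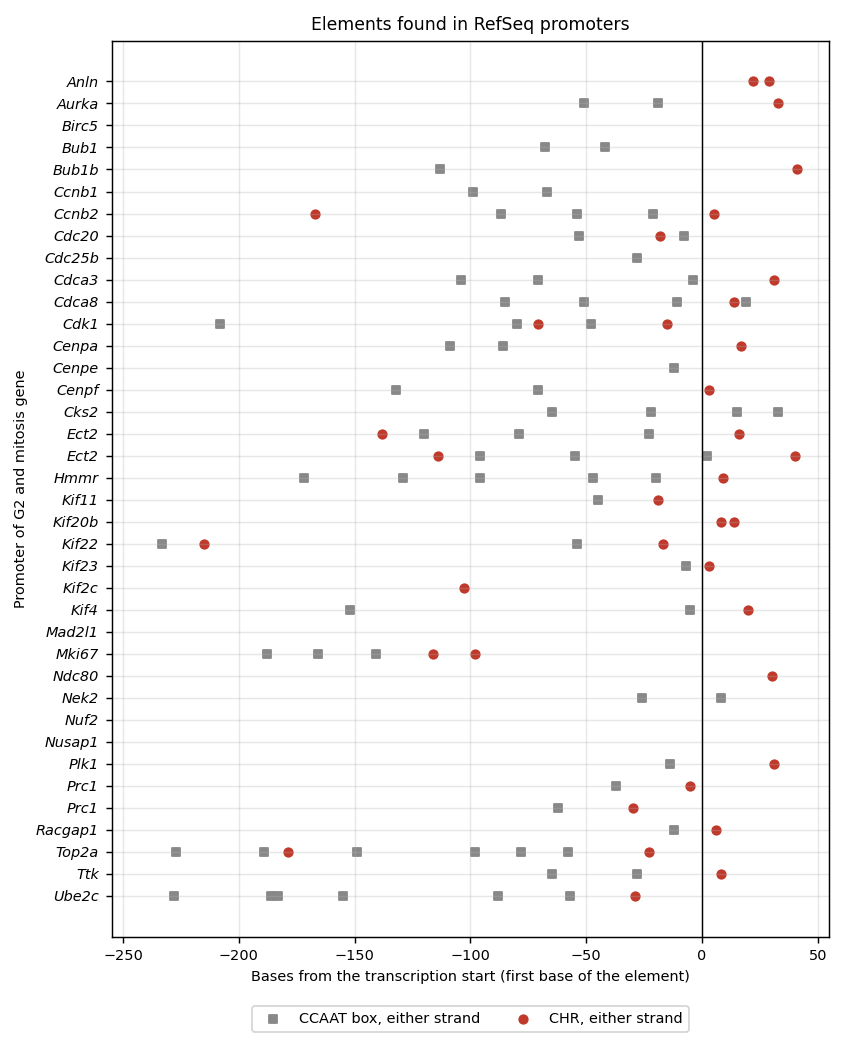
Position of CHR (red circles) and CCAAT boxes (grey squares) on either strand in 38 RefSeq promoters of 36 genes, in bases from the transcription start (vertical line), with genes in rows. CHR matches gather within 50 bases of the start (26 of 38 promoters), and CCAAT boxes mostly lie before it.

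The libraries of the 2 genotypes differed widely in RNA of genes that mark cell types. Slc29a1, the targeted gene, ran from 13.2 to 17.6 TPM in ENT1KO and from 49.7 to 58.9 TPM in WT. A CD8 T cell list (16 genes, among them Cd3e and Cd8a) summed to between 9516 and 11709 TPM in ENT1KO and between 2975 and 7183 TPM in WT, and all 16 were higher in ENT1KO. A fibroblast and tumour list (22 genes, mostly collagens and other matrix genes) summed to between 7.44 and 954 TPM in ENT1KO and between 4563 and 8659 TPM in WT, and all 22 were lower. Col5a1, Col6a1 and Mgp of that list were listed at 0 in ENT1KO replicate 15. A macrophage and monocyte list (19 genes) summed to between 247 and 1651 TPM against 4152 and 6195 TPM, all 19 lower. Each library held 18624318 to 19660792 gene reads. The part of these lists in the differences of the G2 and mitosis genes was not tested, and fewer cells of a type cannot be told apart from less RNA per cell.

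Most of the 42 genes did not differ between genotypes beyond the spread of the libraries, and those that did were nearly all lower in ENT1KO. 12 genes fell and 1 rose (limma-trend on log2(TPM + 1), Benjamini-Hochberg adjusted p under 0.05 over all genes tested). The 12 were 28.6% of the genes, against 23.1% of all tested genes called lower, a share near the background. The 1 riser was 2.38% of them, against 27.5% of all tested genes called higher, so that 50.6% of all tested genes were called in either direction. The median difference, given throughout on the log2(TPM + 1) scale as ENT1KO minus WT, was -0.48, against 0.15 over all tested genes. Changes of genes near 1 TPM are compressed on that scale. Of the 42 differences 31 were negative, against 5671 of 13798 over all tested genes. The values of the genotypes did not overlap for 8 genes lower and 1 higher in ENT1KO, 19.0% and 2.38%, against 24.9% and 30.3% of all tested genes. In the authors' deposited table of their own comparison 17 of the 42 were lower and 1 higher at an adjusted p under 0.05. The share lower was larger than the 28.0% of all tested genes there, and the share higher smaller than the 21.4%.

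The number of falls depended on single libraries. It was 7 without ENT1KO replicate 11 and 7 without ENT1KO replicate 12, where 2796 and 2860 of all 13798 tested genes were called lower. It was 7 without WT replicate 1 and 6 without WT replicate 2 (where 18.3% of all tested genes were called lower). It was 23 without ENT1KO replicate 15 (21.5%). In that last set Hmmr, Cdca3, Tpx2, Ccna2, Bub1, Birc5, Cdca8, Ect2, Bub1b, Prc1 and Kif23 were called lower as well (limma adjusted p from 0.00674 to 0.0484). Without WT replicate 3, Hmmr, Tpx2, Ccna2, Bub1 and Ttk were called lower (limma adjusted p from 0.036 to 0.0495). Rises numbered 3 without WT replicate 1, where Mki67 and Kif20b joined Smc4 (limma adjusted p = 0.0284 and 0.0368). 6 genes, Anln, Aurka, Ccnb1, Cdk1, Cdc20 and Kif20a, kept a call of lower in ENT1KO in each of the 17 alternative settings, which comprised other scalings, filters and pseudocounts, the authors' table and the removal of each library.

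**Figure D2:**
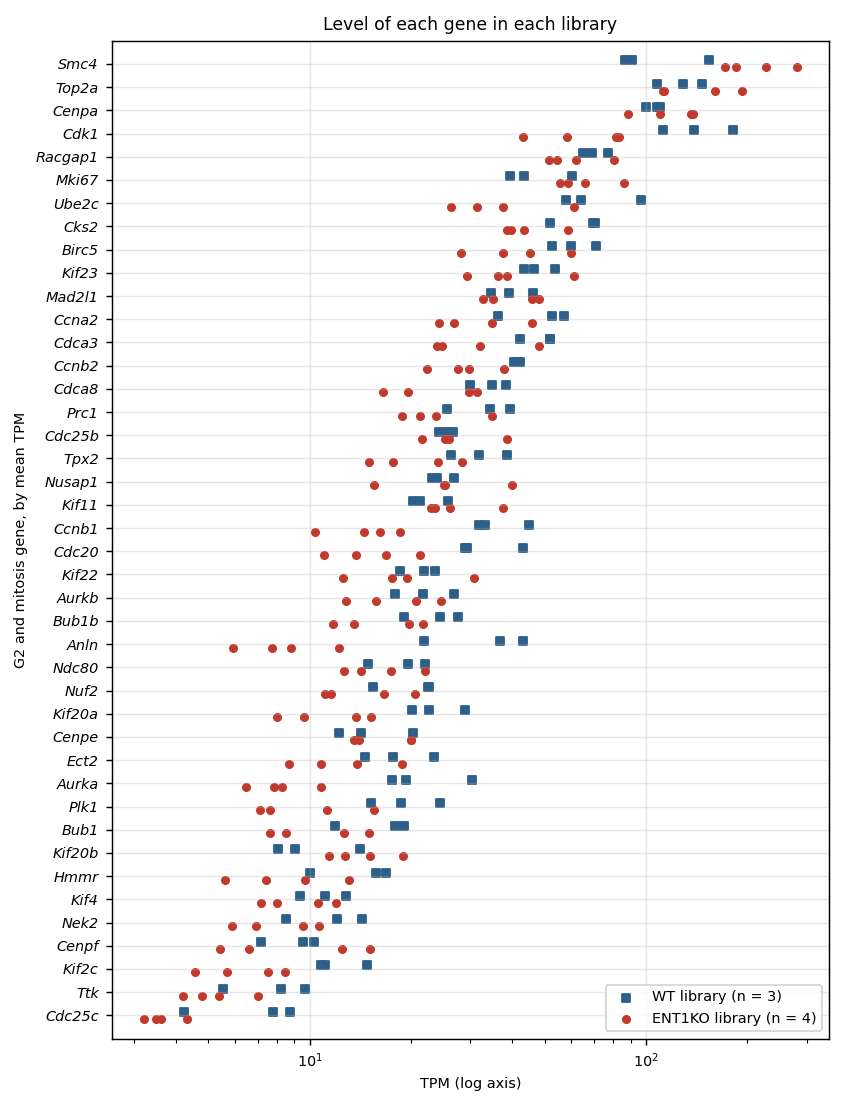
TPM (log axis) of each of the 42 genes in each library, ENT1KO as red circles (n = 4) and WT as blue squares (n = 3), ordered by mean TPM. Blue squares lie to the right of red circles for genes such as Anln, Aurka, Ccnb1 and Cdk1, the colours mix for most genes, and Smc4 alone has all red circles to the right.

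The kinase that drives entry into mitosis and its cyclins formed the largest group and held the largest number of falls. Of the 8 genes of this group (Cdk1, Ccnb1, Ccnb2, Ccna2, Cks2, Cdc25b, Cdc25c and Cdca3) 5 fell and none rose in limma-trend. That share of 62.5% stood against 23.1% of all tested genes called lower, and not all of these calls held when single libraries were left out. Ccnb1, cyclin B1 (chromosome 13, 100915158 to 100923078, GRCm39), was measured in ENT1KO at 10.4, 14.5, 16.2 and 18.6 TPM (replicates 11, 12, 14, 15, the order used throughout) and in WT at 33.15, 44.9 and 31.8 TPM (replicates 1, 2, 3). Each WT library was thus above every ENT1KO library. Mean TPM was 14.9 ± 3.48 in ENT1KO (SD, n = 4) and 36.6 ± 7.21 in WT (SD, n = 3), and the log2 difference -1.25 (SE 0.20, limma adjusted p = 0.00253). Cdk1, the catalytic subunit and the most abundant of the group (chromosome 10, 69170976 to 69188768), was at 43.0, 58.1, 81.6 and 82.9 TPM in ENT1KO and at 139, 181 and 113 TPM in WT. Its groups did not overlap either, with a log2 difference of -1.13 (SE 0.26, limma adjusted p = 0.00849).

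Ccnb2, cyclin B2, was at 29.4 ± 6.46 against 41.5 ± 0.858 TPM (n = 4 and 3), a difference of -0.51 without overlap (limma adjusted p = 0.0319). Cks2, a small subunit of the kinase, was at 45.1 ± 9.30 against 63.9 ± 10.5 TPM (difference -0.50, limma adjusted p = 0.043), and Cdc25c, a phosphatase that activates the kinase, at 3.67 ± 0.473 against 6.91 ± 2.38 TPM (difference -0.72, limma adjusted p = 0.0357). These 3 calls were fragile. Ccnb2 lost its call when any library but ENT1KO replicate 15 was left out (limma adjusted p from 0.0517 to 0.0821). Cks2 and Cdc25c did so without any 1 of the same ENT1KO libraries, WT replicate 1 or WT replicate 2 (limma adjusted p from 0.061 to 0.133), and Cks2 was not called in the authors' deposited table (adjusted p = 0.148). Ccna2, cyclin A2, which acts in S phase as well as in G2, was at 32.9 ± 9.63 against 48.6 ± 10.9 TPM and was not called in limma-trend (difference -0.57, limma adjusted p = 0.0775; 0.0162 in the authors' deposited table). Cdca3, which promotes mitotic entry, stood at -0.63 (limma adjusted p = 0.0522). Cdc25b, a phosphatase that acts earlier in G2, was at 27.8 ± 7.38 against 25.5 ± 1.24 TPM (difference 0.09, limma adjusted p = 0.696).

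Among the mitotic kinases and the Aurora A activator Tpx2, 2 of 6 fell and none rose in limma-trend. The falls were 33.3%, against 23.1% of all tested genes called lower (27.5% were called higher). Aurka, Aurora kinase A, which matures the spindle poles (chromosome 2, 172198110 to 172212455), was at 6.47, 7.85, 8.29 and 10.8 TPM in ENT1KO and at 19.3, 30.5 and 17.6 TPM in WT. The groups were apart by more than the range of the ENT1KO libraries, with means of 8.36 ± 1.82 and 22.4 ± 6.9998 TPM and a difference of -1.304 (SE 0.22, limma adjusted p = 0.00296). Plk1, Polo-like kinase 1, was at 10.4 ± 3.88 against 19.5 ± 4.66 TPM, with overlapping groups (difference -0.88, limma adjusted p = 0.027). The call for Plk1 was lost when ENT1KO 11, ENT1KO 12, WT 1 or WT 2 was left out (limma adjusted p from 0.0646 to 0.102).

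Tpx2, the most abundant of this group, was at 15.04, 17.7, 24.1 and 28.3 TPM in ENT1KO and at 31.8, 38.5 and 26.3 TPM in WT. ENT1KO replicate 15 thus lay above WT replicate 3, and the difference of -0.60 was not called in limma-trend (SE 0.23, limma adjusted p = 0.0549; 0.0141 in the authors' deposited table). Bub1 and Ttk, kinases of the spindle checkpoint, and Nek2, a centrosome kinase, had differences of -0.55, -0.46 and -0.45 (limma adjusted p from 0.101 to 0.142).

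No gene of the chromosomal passenger complex, which corrects faulty attachments, was called in limma-trend, although all 3 differences were negative and Birc5 had an unadjusted p of 0.0482. Birc5, survivin, was at 28.25, 37.7, 45.2 and 59.8 TPM in ENT1KO and at 59.7, 70.9 and 52.6 TPM in WT. Only ENT1KO replicate 15 reached the WT range, and the difference was -0.55 (SE 0.23, limma adjusted p = 0.0835). Cdca8, borealin, stood at -0.52 (limma adjusted p = 0.0871; in the authors' deposited table the adjusted p was 0.0227) and Aurkb, Aurora kinase B, at -0.27 (limma adjusted p = 0.338). Incenp, a further subunit, was in the list of other G2 and mitosis genes and went the other way. Its difference was 0.35, with overlapping groups and no call (limma unadjusted p = 0.0388, limma adjusted p = 0.07).

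Of the 4 genes of the spindle checkpoint and the anaphase-promoting complex, the 2 that promote anaphase fell. Cdc20, the activator of the complex (chromosome 4, 118290098 to 118294549), was at 11.01, 13.7, 16.9 and 21.3 TPM in ENT1KO and at 29.4, 43.2 and 29.05 TPM in WT. The genotypes did not overlap, with a difference of -1.07 (SE 0.23, limma adjusted p = 0.00675). Ube2c, the ubiquitin-conjugating enzyme of the complex, was at 26.3, 31.4, 37.5 and 61.1 TPM in ENT1KO and at 63.95, 96.8 and 58.0 TPM in WT. ENT1KO replicate 15 lay inside the WT range, and the difference was -0.92 (SE 0.29, limma adjusted p = 0.0309). Its call was lost when ENT1KO 11, 12 or 14, WT 1 or WT 2 was left out (limma adjusted p from 0.0535 to 0.124). The checkpoint proteins of the group that restrain the complex were not called in limma-trend. Bub1b, BubR1, stood at -0.50 (limma adjusted p = 0.097) and was lower in the authors' deposited table (log2 fold change -0.72, adjusted p = 0.022), while Mad2l1, Mad2, was at 40.4 ± 7.66 against 39.9 ± 5.82 TPM (difference 0.01, SE 0.17, limma adjusted p = 0.966).

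The 5 centromere and kinetochore genes among the 42 gave no call in limma-trend, where 50.6% of all tested genes were called. Their median difference was 0.03. None had an unadjusted p under 0.05 and none was called in the authors' deposited table. This did not hold for all such genes outside the 42, looked up after their values were seen. In the list of other G2 and mitosis genes, Cenpm, Spdl1, Sgo1, Cenpp, Zwint and Cenpi were called lower (limma adjusted p from 0.0219 to 0.0474). Knl1 was called higher (limma adjusted p = 0.0358), and others, among them Cenpk, Cenph and Spc25, were not called. Nuf2, of the microtubule-binding Ndc80 complex, was at 11.6, 11.1, 16.7 and 20.6 TPM in ENT1KO and at 22.7, 22.5 and 15.4 TPM in WT (difference -0.43, SE 0.24, limma adjusted p = 0.161). Its partner Ndc80 stood at -0.19. Cenpa, the histone H3 variant that marks centromeres, was at 138, 136, 109.8 and 88.65 TPM in ENT1KO and at 108, 109.8 and 100.2 TPM in WT (difference 0.13, SE 0.16, limma adjusted p = 0.504). The ENT1KO libraries lay on both sides of the WT range, and ENT1KO replicate 15, the highest for most of the 42 genes, was the lowest for Cenpa. Cenpe, a kinetochore motor, and Cenpf, a kinetochore-associated protein, stood at 0.12 and 0.03.

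Of 6 spindle motors and microtubule-binding proteins 1 fell and none rose in limma-trend. That fall was 16.7% of the group, below the 23.1% of all tested genes called lower (27.5% were called higher). Kif2c, a kinesin that shortens microtubules at centromeres, was at 4.55, 5.67, 7.50 and 8.47 TPM in ENT1KO and at 10.8, 14.8 and 11.1 TPM in WT. No ENT1KO library reached the WT range, with a difference of -0.83 (SE 0.22, limma adjusted p = 0.0142; 0.0555 without WT replicate 2). Nusap1, which bundles spindle microtubules, was at 15.55, 25.1, 25.2 and 39.9 TPM in ENT1KO and at 26.9, 23.1 and 23.9 TPM in WT. Its WT values lay inside the ENT1KO range, with a difference of 0.03 (SE 0.27, limma adjusted p = 0.936). Hmmr, a spindle assembly factor, stood at -0.64 (limma adjusted p = 0.0888; 0.0266 in the authors' deposited table), Kif4 and Kif22, motors on chromosome arms, at -0.23 and -0.14, and Kif11, the motor that separates spindle poles, at 0.26 (limma adjusted p = 0.253).

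The lowest value of all 42 differences belonged to cytokinesis. Anln, anillin, a scaffold of the contractile ring (chromosome 9, 22243308 to 22300484), was at 5.90, 7.75, 12.2 and 8.77 TPM in ENT1KO and at 36.7, 43.1 and 21.9 TPM in WT. Every WT library was above every ENT1KO library, with means of 8.66 ± 2.66 (n = 4) and 33.9 ± 10.9 TPM (n = 3), 3.91 times as high in WT (log2 difference -1.84, SE 0.28, limma adjusted p = 0.00203). Kif20a, a kinesin of the central spindle, fell from 23.9 ± 4.57 in WT to 11.65 ± 3.37 TPM in ENT1KO, without overlap (difference -1.002, limma adjusted p = 0.0084). The other 5 genes of this group were not called in limma-trend, so 28.6% of the group fell, against 23.1% of all tested genes. Racgap1, of the centralspindlin complex and the most abundant of the group, was at 51.5, 54.4, 62.1 and 80.3 TPM in ENT1KO and at 69.3, 77.1 and 64.95 TPM in WT (difference -0.20, SE 0.16, limma adjusted p = 0.322). Its groups overlapped through ENT1KO replicate 15. Ect2, the exchange factor that activates RhoA, stood at -0.51 (limma adjusted p = 0.130), and was lower in the authors' deposited table (log2 fold change -0.93, adjusted p = 0.00671). Prc1, which bundles midzone microtubules, stood at -0.43 and Kif23, the motor of centralspindlin, at -0.25. Kif20b, a further kinesin of cytokinesis, was at 14.6 ± 3.31 against 10.4 ± 3.26 TPM (difference 0.46, limma adjusted p = 0.121).

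Genes of chromosome structure were the one group with no negative difference in TPM, where 8127 of 13798 tested genes had a positive one. Top2a stood at the median of all tested genes (0.15), and at -0.05 on the authors' normalized counts. Like all of the 42 genes, these 3 were negative relative to CD8 T cell genes. Smc4, the core subunit of condensin (chromosome 3, 68912071 to 68941956), was at 281, 171, 185 and 227 TPM in ENT1KO and at 154, 90.6 and 86.4 TPM in WT. It was the only one of the 42 genes with every ENT1KO library above every WT library, with means of 216 ± 49.1 (n = 4) and 110.4 ± 37.9 TPM (n = 3) and a difference of 0.99 (SE 0.24, limma adjusted p = 0.0115). Mki67, the Ki-67 protein that coats mitotic chromosomes and is used to mark cycling cells, was at 66.55 ± 13.7 against 47.6 ± 11.2 TPM (difference 0.48, SE 0.19, limma adjusted p = 0.0679). Top2a, topoisomerase II alpha, which untangles sister chromatids, was at 145 ± 39.3 against 128 ± 19.4 TPM (difference 0.15, SE 0.21, limma adjusted p = 0.578). Smc4, Cdc20, Kif20a and Ube2c overlap other named genes in the deposited coordinates (Mir15b and Mir16-2, Elovl1, Cdc23 and Tnnc2). The TPM table is named as stranded, and the sources used here do not give how reads in the overlaps were assigned.

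**Figure D3:**
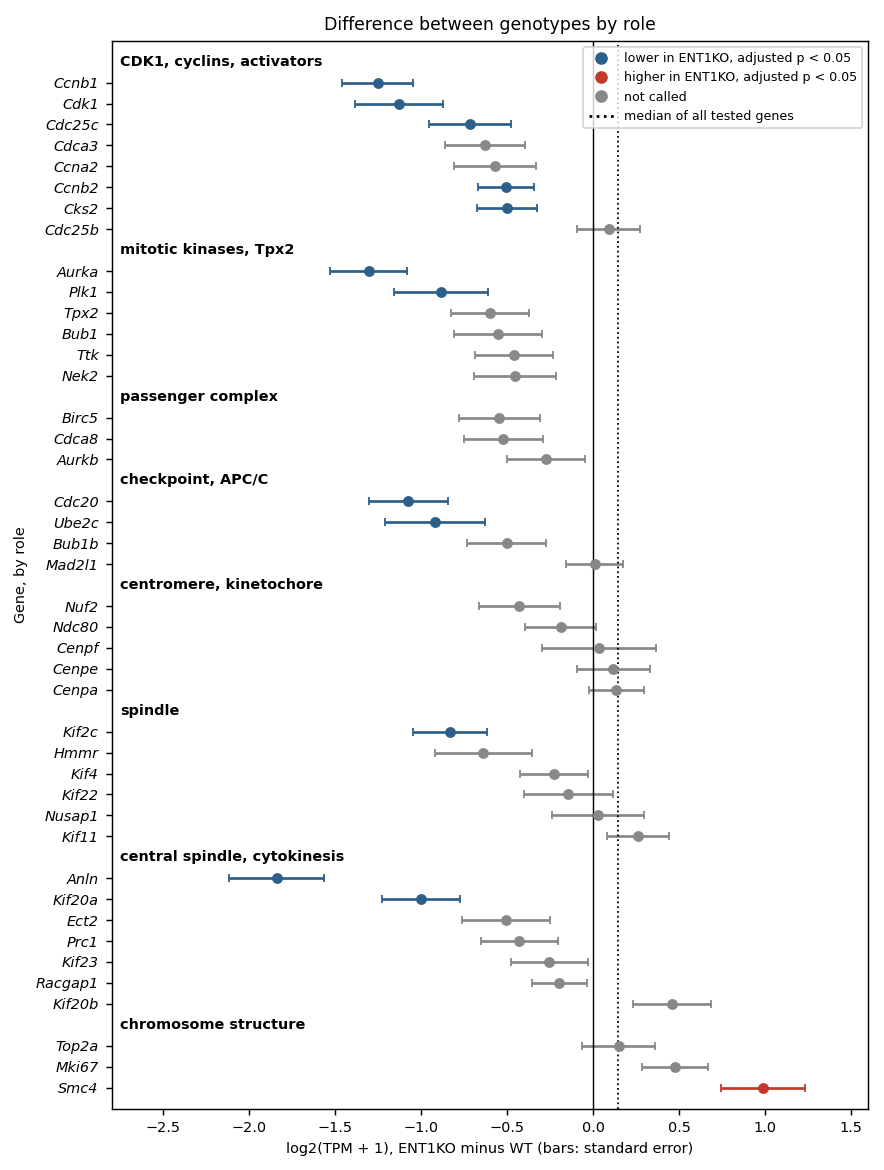
Log2(TPM + 1) difference, ENT1KO minus WT, with its standard error, for the 42 genes grouped by role (blue, called lower; red, called higher; grey, not called; dotted line, median of all tested genes at 0.15). Falls stand in 5 of the 8 groups and are led by Anln at -1.84, while the 3 chromosome structure genes lie to the right of 0.

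Within each genotype the genes moved together from library to library, and mostly in 1 order. ENT1KO replicate 15 was the highest ENT1KO library for 39 of the 42 genes, against 20.7% of all tested genes, and replicate 11 was the lowest for 32, against 21.0%. The full order 15, 14, 12, 11 from high to low held for 31 genes. From replicate 11 to replicate 15 the median log2 difference was 0.77, and 40 of 42 genes were higher in 15, against a median of -0.06 and 5675 of 13798 over all tested genes. Other cell cycle genes shared this, with 73 of 76 other G2 and mitosis genes and 45 of 48 S phase genes higher in 15 (medians 0.63 and 0.40). The exceptions to replicate 15 as the highest were Anln, highest in replicate 14, and Cenpa and Smc4, highest in replicate 11. The highest ENT1KO library was between 1.34 (Cdc25c) and 2.80 (Cenpf) times the lowest, with a median over the genes of 1.85 times. Among WT libraries replicate 3 was the lowest for 37 genes, against 34.0% of all tested genes, and replicate 2 the highest for 25, against 29.0%.

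**Figure D4:**
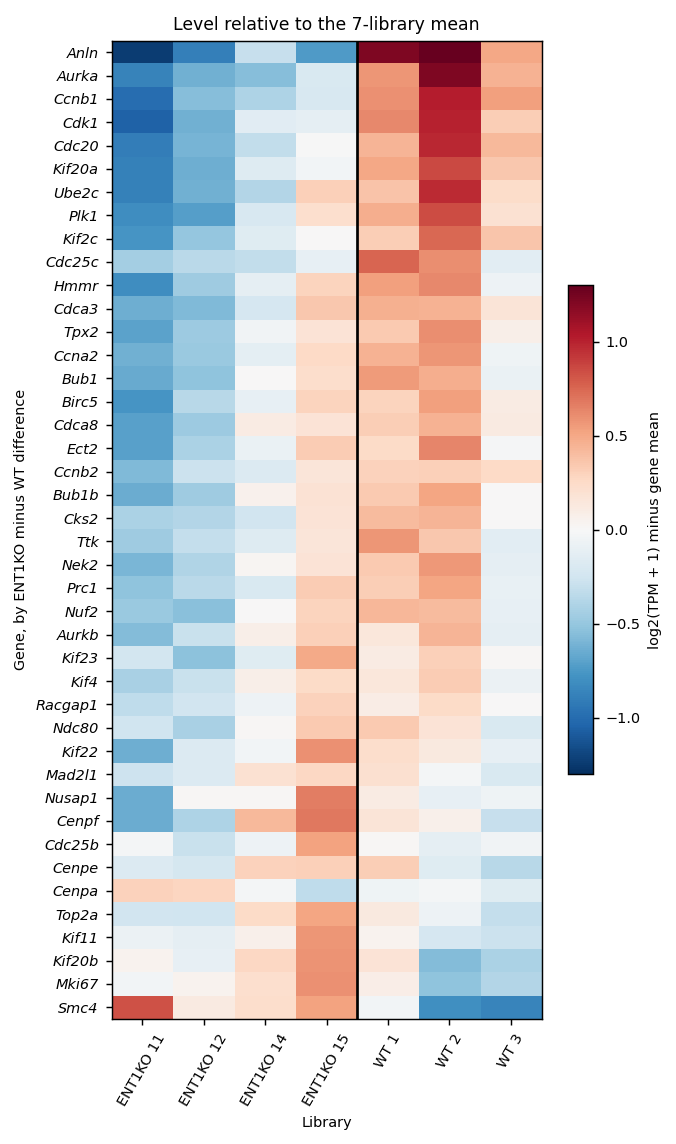
Log2(TPM + 1) of each gene minus its mean over the 7 libraries (red above, blue below), genes ordered by ENT1KO minus WT difference. ENT1KO replicates 11 and 12 are below the mean for most genes, ENT1KO replicate 15 is above it for most genes of the lower rows, and the top rows, from Anln to Kif2c, are highest in WT replicate 2.

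Set beside T cell and tumour genes, the order of the ENT1KO libraries matched neither. The fibroblast and tumour list ranked them 14, 12, 11, 15 from high to low and the CD8 T cell list 12, 15, 11, 14, and none of the 42 genes had either order, against 10.1% and 2.91% of all tested genes. Replicates 15 and 11 were nearly tied for the CD8 T cell list (10373 and 10331 TPM). On the mean log2(TPM + 1) of that list they changed places (8.95 and 8.98). With so small a background share, the absence of that order among 42 genes says little. ENT1KO replicate 15, where the fibroblast and tumour list summed to 7.44 TPM and the macrophage list to 247 TPM, the lowest of all 7 libraries, thus had the highest ENT1KO level of 39 of the 42 genes. Summed over the 42 genes it held 1742 TPM, against 1221, 1190 and 1419 TPM in replicates 11, 12 and 14 and 1713, 1775 and 1352 TPM in WT replicates 1, 2 and 3. The sum in replicate 15 lay within the range of the WT libraries.

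Among WT libraries the order of the tumour list was met more often. That list ranked them 2, 1, 3, and 24 of the 42 genes had this order (57.1%, against 20.5% of all tested genes). These included Anln, Aurka, Ccnb1, Cdk1, Cdc20, Kif20a, Ube2c and Plk1. The reverse order, which the CD8 T cell list followed, was seen for none of the 42, against 26.9% of all tested genes. The order 2, 1, 3 was not particular to the tumour list. The macrophage and monocyte list had it as well (6195, 4302 and 4152 TPM), and shared the tumour list's order in ENT1KO. Lists for dendritic, neutrophil and mast, and endothelial cells also had the WT order, and the remaining cell type lists did not. Tumour and macrophage genes thus cannot be told apart by these orders. Mki67, Kif20b, Nusap1 and Cdc25b were lowest in WT replicate 2, which had the lowest CD8 T cell sum (2975 TPM). With 3 libraries in a group these orders are a description, and no correlation over the 7 libraries is given because the 2 genotypes form separate clusters.

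A second description used the library of each genotype with the most tumour list RNA, ENT1KO replicate 14 and WT replicate 2, against the mean of the others of its genotype. These libraries also had the highest macrophage and monocyte sum of their genotype. The 22 tumour list genes were higher in both, by medians of 2.89 and 0.70 on the log2(TPM + 1) scale, and the 16 CD8 T cell genes lower in both, by medians of -0.19 and -0.96. Of the 42 G2 and mitosis genes 29 were higher in both, with medians of 0.17 and 0.25. Of all 13798 tested genes 4289 were higher in both and 5088 lower in both, with medians of 0.03 and -0.10. The S phase list had 45 of 48 genes higher in ENT1KO replicate 14 (median 0.33) and 14 of 48 higher in WT replicate 2 (median -0.11). Smc4, Kif11 and Cdc25b were lower in both, but their library order did not follow the CD8 T cell list. In ENT1KO each was lowest in replicate 12 (171, 22.9 and 21.5 TPM), which had the highest CD8 T cell sum (11709 TPM). In WT, Smc4 and Kif11 were lowest in replicate 3, which had the highest WT sum of that list (7183 TPM). For Mki67 the values were 0.01 and -0.37 and for Kif20b 0.10 and -0.44.

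**Figure D5:**
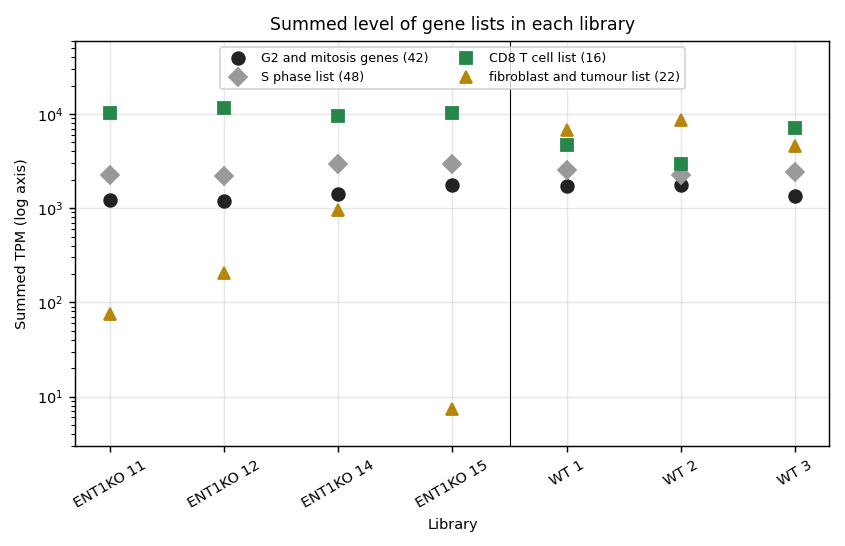
Summed TPM (log axis) in each library for the 42 G2 and mitosis genes (black circles), an S phase list (grey diamonds), a CD8 T cell list (green squares) and a fibroblast and tumour list (gold triangles). The 2 cell cycle sums stay within a narrow band, from 1190 to 1775 TPM for the 42 genes, while the tumour list runs from 7.44 TPM in ENT1KO replicate 15 to 8659 TPM in WT replicate 2.

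Relative to the CD8 T cell list, all 42 genes were lower in ENT1KO, a sign that the scale fixed. Each gene of the subtracted list was higher in ENT1KO by at least 1.03, and the largest difference of the 42 genes was 0.99. For this scale the mean log2(TPM + 1) of the 16 T cell genes was subtracted in each library, and the differences ran from -3.03 for Anln to -0.20 for Smc4, with a median of -1.67 against -1.04 over all tested genes. In limma without variance moderation 28 of the 42 passed an adjusted p of 0.05, or 66.7%, against 59.5% of all tested genes, and none was higher (0.232% of all tested genes, and 0 of the 42 at an unadjusted p under 0.05). The genotypes did not overlap for 32 of the 42, against 67.6% of all genes. Mki67 stood at -3.16, -3.18, -2.74 and -2.50 in ENT1KO and at -1.84, -1.78 and -2.93 in WT on this scale, so WT replicate 3 lay among the ENT1KO libraries. Its difference of -0.71 was not called (limma adjusted p = 0.137), nor was that of Smc4 (limma adjusted p = 0.688).

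Genes around the same pathway were followed in lists drawn up by function. Of 76 other genes of G2 and mitosis 16 fell and 3 rose in limma-trend, 21.1% and 3.95% (all tested genes, 23.1% and 27.5%), with a median difference of -0.15. Cks1b, the paralogue of Cks2, was at 46.8 ± 13.2 against 118 ± 27.0 TPM (difference -1.34, limma adjusted p = 0.00378), and Iqgap3, a scaffold of the cell cortex, at 2.62 ± 0.972 against 7.41 ± 1.62 TPM (difference -1.24, limma adjusted p = 0.0063). Of 48 S phase and DNA replication genes 2 were called lower and 2 higher (4.17% each, below both shares of all tested genes; median difference 0.06). Rpa2, a subunit of the single-strand binding protein, was at 76.6 ± 7.80 against 43.6 ± 7.86 TPM (limma adjusted p = 0.00313), and Chaf1a, a histone chaperone, at 15.5 ± 3.19 against 24.2 ± 2.84 TPM (limma adjusted p = 0.0142). The S phase sum ran from 2180.03 to 2970.2 TPM in ENT1KO and from 2268 to 2514 TPM in WT.

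Of 20 regulators of these promoters 5 rose and 2 fell in limma-trend, 25.0% and 10.0%, against 27.5% and 23.1% of all tested genes. Rbl2 and Rbl1, the p130 and p107 pocket proteins that hold MuvB in its repressive form, rose, from 37.7 ± 8.87 to 69.4 ± 8.56 TPM (difference 0.88, limma adjusted p = 0.00492) and from 25.6 ± 3.67 to 38.4 ± 3.33 TPM (difference 0.57, limma adjusted p = 0.00711). The activators and further pocket protein that follow are named for their role after their values were seen. Mybl2 (B-Myb) fell from 19.6 ± 3.04 to 11.9 ± 2.99 TPM (limma adjusted p = 0.019), and Foxm1 was at 19.4 ± 5.21 against 22.3 ± 3.60 TPM (limma adjusted p = 0.413). The subunits of NF-Y, which binds CCAAT boxes, differed in direction: Nfyb and Nfyc rose (differences 0.52 and 0.30, limma adjusted p = 0.0196 and 0.0228) and Nfya fell (difference -0.42, limma adjusted p = 0.022). Nfyc was not called in the authors' deposited table (adjusted p = 0.459). Rb1, the retinoblastoma protein, rose by 0.46 with overlapping groups (limma adjusted p = 0.0397), and was not called in the authors' deposited table either (adjusted p = 0.101). Among 23 tested genes that restrain entry or exit 5 rose and 3 fell, 21.7% and 13.0%, both below the shares of all tested genes. Cdkn1a, the p21 inhibitor of cyclin-dependent kinases, was at 17.3 ± 2.55 against 51.0 ± 10.7 TPM (difference -1.50, limma adjusted p = 0.00121), and Btg1, an antiproliferative gene of resting lymphocytes, at 1151 ± 105 against 619 ± 149 TPM (difference 0.92, limma adjusted p = 0.00376). These levels stood beside the T cell, tumour and macrophage sums given above, whose part in them was not tested.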

How the data were processed

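RNA-seq of 7 libraries (4 ENT1KO and 3 WT, groups from the sample titles) was used, each made from 75 ng RNA input (labels' protocols). The authors deposited TPM for 55357 genes. In a second table they deposited a signal, gene counts divided by 1 size factor per sample as judged from its values, together with log2 fold changes, p-values and a score, the fold change over its standard error. Per the submitters' processing notes, the build named is GRCm39 and the tools are DESeq2 1.30.1, RSEM, STAR 2.7.1a and Trimmomatic (0.35 and 0.38), with no roles stated. The signal values were whole multiples of 1 step per column (100% within 0.01), which gave the read totals. A second check did not recover whole reads in 2 columns, so no count test was run.

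Genes with at least 1 TPM in 3 samples (13798) were tested with limma-trend and robust empirical Bayes on log2(TPM + 1). Genotype was the single term, and p-values were adjusted by the Benjamini-Hochberg method (R 4.3.3, limma 3.58.1; figures with matplotlib 3.10.9, Python 3.11.15). The script was tested on simulated data. The 42 genes, the lists and the tests were chosen with earlier results of these data known. All 42 genes may be named. Values in every library are given, in each role group, for the gene with the smallest p, the gene with the highest mean TPM and the gene called against the majority; of each other pathway list the 2 genes with the smallest p are named. The alternatives were other pseudocounts, filters and scalings, the authors' results, protein-coding genes only and removal of each library. Lists for dendritic, neutrophil and mast, endothelial, B, CD4 and regulatory T, NK and erythroid cells gave 6, 8, 6, 1, 2, 3 and 5 falls and 1, 0, 1, 2, 3, 2 and 0 rises among 12, 8, 7, 3, 6, 8 and 5 tested genes in limma.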

Additional observations from a re-analysis of the deposited data

How the results depend on the processing

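The count of 12 falls among the 42 genes was 7 when genes with a value above 0 in 1 sample were tested, which raised the number of genes tested to 26819, and 28 when each library was centred on the CD8 T cell list. It ran from 6 to 23 when 1 library was left out, and from 12 to 17 in the other settings. The count of 1 rise was 0 on the T cell scale and ran from 1 to 3 when 1 library was left out. Smc4 reversed on the T cell scale, at -0.20. That scaling moved the median of all tested genes from 0.15 to -1.04, and 32 of all tested genes were then higher and 8206 lower, against 3800 and 3182; the change of sign follows from subtracting a list that was higher in ENT1KO. On the authors' normalized counts 2894 genes were higher and 3859 lower, with 16 falls and 1 rise among the 42 genes, and Mad2l1, Nusap1, Cdc25b, Cenpe and Top2a, none of them called, changed sign. No paired analysis was possible because the genotypes share no replicate numbers. With 4 and 3 libraries a difference that missed the threshold is not shown to be absent.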

Other observations

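Smc4 is a subunit of condensin, and the other condensin subunits of the lists, looked up after the value of Smc4 was seen, were not called in limma-trend. Smc2, its direct partner, was at 33.9 ± 6.92 TPM in ENT1KO (n = 4) against 26.2 ± 4.94 TPM in WT (n = 3), a log2 difference of 0.35 (limma adjusted p = 0.132). Ncapd2, Ncapg, Ncaph and Ncapg2 had differences of 0.11, 0.09, -0.05 and 0.04. The 3 other genes of G2 and mitosis that rose in limma-trend were Pttg1, securin (85.4 ± 3.86 against 62.4 ± 6.82 TPM, limma adjusted p = 0.00834), Kif15, a spindle motor (44.6 ± 10.2 against 25.2 ± 4.02 TPM, limma adjusted p = 0.0109), and Knl1, a kinetochore scaffold (9.39 ± 3.05 against 4.78 ± 1.66 TPM, limma adjusted p = 0.0358). The groups overlapped for Knl1, and in the authors' deposited table it was not called (log2 fold change 0.23 there, against 0.84 on the log2(TPM + 1) scale; adjusted p = 0.565).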
